A study of Mus musculus with 2 samples.

Results

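The 10 genes described here, Dazl, Ddx4, Stra8, Sycp1, Sycp3, Mael, Taf7l, Slc25a31, Tex19.1 and Ccnb1ip1, are best known from germ cells and meiosis. They were chosen by name, and all 10 were found among the 51826 genes of the deposited table. RNA came from mouse embryonic stem (ES) cells, named v6.5 by the source label and NBA1-19349 by the strain label, and the labels do not say how these names relate. One library was labelled T29I and the other WT. Both groups have the same source, strain and cell type labels, and neither label names a treatment. The series title refers to a mutated PRSS1 gene, a trypsinogen of the pancreas, and the labels do not say whether the T29I cells are 1 clone. The comparison asks how RNA levels of ES cells with the mutation compare with those without it. With 1 library per group no difference was replicated, so no p-value is given, and "higher" and "lower" refer to these libraries.

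Germ cells specified in the early embryo switch on RNA-binding proteins such as Dazl and Ddx4, then enter meiosis under Stra8. In meiotic prophase the synaptonemal complex, which includes Sycp1 and Sycp3, joins homologous chromosomes while crossovers mature. The piRNA machinery and Tex19.1 restrain transposons in the same cells. In mouse ES cells many such genes are held low by DNA methylation at CpG-rich promoters and by a variant Polycomb complex, PRC1.6. In that complex Mga with Max recognises the E-box and E2f6 recognises an E2F-type element. Tex19.1 is known to be active in ES cells as well as in germ cells.

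The table gives TPM (transcripts per 1000000, reads per length scaled to a fixed library sum). The depth was estimated at 15256644 reads in the T29I library and 16905023 reads in the WT library, because low values were whole multiples of what 1 read is worth. Of all genes, 17704 were above 0 in the T29I library and 19332 in the WT library. A gene's ratio is the log2 of T29I over WT on the TPM + 1 scale, on which low genes differ less than their TPM do, and a gene was counted as different at 2-fold on that scale. Genes averaging 1 TPM or more over both libraries are called expressed. Most genes lay lower in the T29I library: the median log2 ratio was -0.90 over the 9375 genes averaging 5 TPM or more. That value is called the shift, and ratios are given as deposited and relative to it. Ratios also followed transcript length and GC content, which accounted for 44.9% of their variance over 9100 protein-coding genes, so a value adjusted for both is given as well. Intervals are 95% counting intervals and leave out any difference between cultures or library preparations. In bulk RNA, more cells expressing a gene and more RNA per expressing cell cannot be told apart.

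The levels of the 10 genes went in both directions. As deposited, Tex19.1 was higher in the T29I library by 2-fold or more, and Ccnb1ip1, Ddx4, Stra8, Sycp1 and Taf7l were lower there by 2-fold or more. Dazl and Sycp3 were higher within 2-fold, and passed it relative to the shift and after adjustment, while Sycp1 and Taf7l lay within 2-fold on both of those scales. Mael and Slc25a31 also lay within 2-fold as deposited, with counting intervals of the fold that included equal levels. All 10 were expressed in this sense, but Taf7l and Ccnb1ip1 reached 1 TPM only through the WT library. The promoters of the 3 higher genes and of the lowest pair, Ddx4 and Ccnb1ip1, are printed first because the known regulation of this gene class acts there. Each line gives the 250 bases before the RefSeq start on GRCm38.p6, 5′ to 3′. Capitals mark the E-box CACGTG and the E2F6 element TCCCGC, the latter read on both strands (GCGGGA on the other).
Tex19.1 promoter, chr11:121145893-121146142, + strand: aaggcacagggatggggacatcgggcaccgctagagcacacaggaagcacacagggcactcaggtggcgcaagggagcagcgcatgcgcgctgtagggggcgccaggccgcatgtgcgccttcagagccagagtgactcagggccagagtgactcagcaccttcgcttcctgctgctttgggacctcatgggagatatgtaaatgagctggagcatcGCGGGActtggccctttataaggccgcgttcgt
Dazl promoter, chr17:50293621-50293870, - strand: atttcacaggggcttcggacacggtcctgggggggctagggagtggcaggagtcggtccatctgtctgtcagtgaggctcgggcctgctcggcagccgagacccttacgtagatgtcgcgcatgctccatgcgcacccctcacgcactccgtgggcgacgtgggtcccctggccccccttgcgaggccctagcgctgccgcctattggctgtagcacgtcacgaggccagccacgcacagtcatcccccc
Sycp3 promoter, chr10:88459337-88459586, + strand: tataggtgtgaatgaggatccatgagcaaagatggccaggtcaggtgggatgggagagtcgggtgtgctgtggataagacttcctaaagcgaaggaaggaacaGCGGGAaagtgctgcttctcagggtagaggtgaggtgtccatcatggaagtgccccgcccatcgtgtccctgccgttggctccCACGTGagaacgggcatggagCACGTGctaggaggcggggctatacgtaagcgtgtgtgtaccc
Ddx4 promoter, chr13:112652311-112652560, - strand: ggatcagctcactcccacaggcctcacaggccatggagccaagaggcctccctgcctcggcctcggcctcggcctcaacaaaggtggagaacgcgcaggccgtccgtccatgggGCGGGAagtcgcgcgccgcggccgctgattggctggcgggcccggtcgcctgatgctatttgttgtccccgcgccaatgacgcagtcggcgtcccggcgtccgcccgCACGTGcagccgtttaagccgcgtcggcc
Ccnb1ip1 promoter, chr14:50795729-50795978, - strand: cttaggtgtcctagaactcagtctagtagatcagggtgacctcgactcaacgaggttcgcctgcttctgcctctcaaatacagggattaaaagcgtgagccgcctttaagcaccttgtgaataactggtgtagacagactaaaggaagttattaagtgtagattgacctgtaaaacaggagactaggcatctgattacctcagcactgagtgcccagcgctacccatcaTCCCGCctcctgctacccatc

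The promoter windows of the 10 genes held these motifs often. Windows of 300 bases, 250 before and 50 after the start, were searched for all genes on both strands. The E-box CACGTG, which is its own reverse complement, stood in 6 of the 10 windows, against 7.15% of all 32851 windows and 10.8% of the 12820 windows whose CpG count lay in the range of the 10. TCCCGC stood in 7 of the 10, against 19.98% of all windows and 37.9% of those with a like CpG count. Both stood in 5 of the 10, namely Ddx4, Sycp1, Sycp3, Mael and Slc25a31, against 1.99% and 3.98%. In none of the 10 did a match of one motif overlap a match of the other. Sycp3 had 2 E-boxes, starting 64 and 43 bases before the start, as seen in its printed line. Ddx4 had its E-box 29 bases before the start. Tex19.1 and Ccnb1ip1 held a TCCCGC and no E-box, at 33 and 21 bases before the start. Neither Dazl nor Stra8 held either motif in this window, which says only that these letters are not there. Among 70 windows of other meiosis and piRNA genes, the E-box was found in 21 and TCCCGC in 25, or 35.7%, a TCCCGC share no higher than in windows with a like CpG count.

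**Figure D1:**
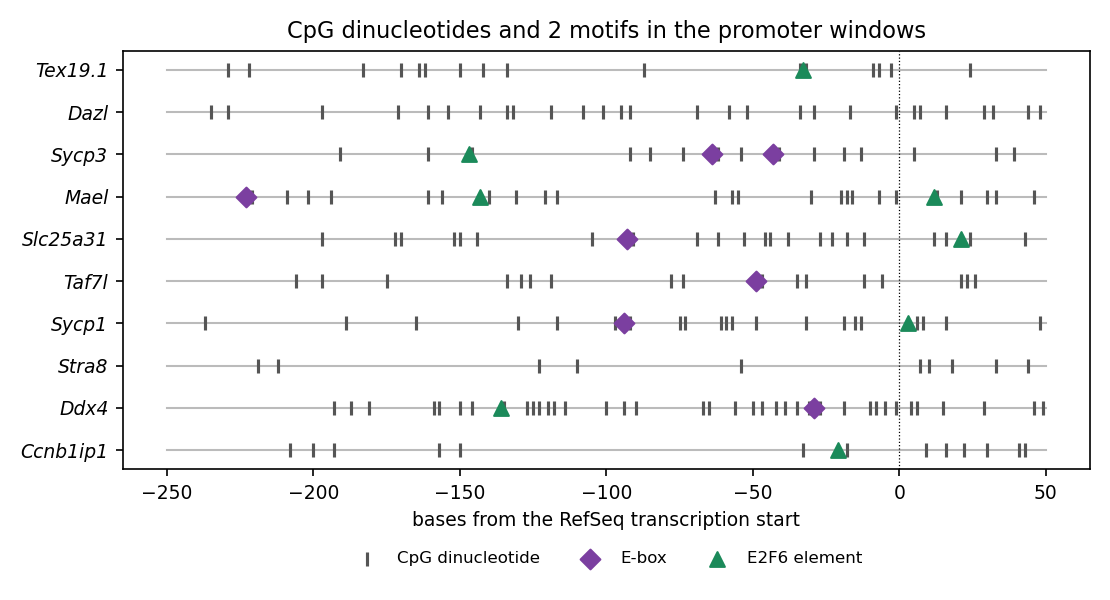
Position of CpG dinucleotides (ticks), E-boxes (diamonds) and E2F6 elements (triangles) in the promoter window of each gene, in bases from the RefSeq start at 0, with genes ordered from the highest T29I over WT ratio (top) to the lowest. E-boxes stand in 6 windows, on both sides of the middle of the order, and Ddx4 has the most CpG dinucleotides, 38.

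CpG content differed widely among the windows. Ddx4 had 38 CpG dinucleotides in 300 bases, more than 95.05% of all windows had, and Dazl had 28. Stra8 had the fewest, 10, and Ccnb1ip1 had 13, against a median of 7 over all windows and 20 over windows of expressed genes. The 4 genes without an E-box went both ways, with log2 ratios of 2.03 for Tex19.1, 0.84 for Dazl, -1.75 for Stra8 and -5.20 for Ccnb1ip1. Over 1168 genes with an E-box and 8450 without, all expressed, the median ratios were -0.87 and -0.80. No methylation or factor binding was measured here. The windows belong to the RefSeq starts. GENCODE places the outermost start of Ccnb1ip1 12004 bases further upstream and that of Stra8 785 bases, both outside their windows, so the motif and CpG counts do not cover those starts. The GENCODE start of Ddx4 lies 165 bases upstream, inside its window, so both motifs of Ddx4 lie downstream of that start.

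Tex19.1 was the most abundant of the 10 in both libraries. It encodes a mammal-specific protein that limits retrotransposons in germ cells and placenta and binds the ubiquitin ligase Ubr2. It lies on chromosome 11 from 121146143 to 121148319 (GENCODE M21, GRCm38, like all gene positions here). Tex19.1 stood at 277 TPM in the T29I library (268 to 287) and 67.3 TPM in the WT library (62.3 to 72.7). The level was thus 4.12-fold higher in the T29I library (3.79 to 4.48), from an estimated 3423 reads in T29I and 654 in WT. Its log2 ratio of 2.03 exceeded that of 97.8% of the 12943 expressed genes, and after adjustment it was 2.14. Tex19.1 made up 85.2% of the summed TPM of the 10 genes in the T29I library and 33.9% in the WT library. Without it, the other 9 genes summed to 48.1 TPM in the T29I library and 131 TPM in the WT library, so the summed level is higher or lower depending on this single gene. Of those 2 sums, Ccnb1ip1 alone made up 0.602 TPM in the T29I library and 57.7 TPM in the WT library.

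The paralogue Tex19.2, which shares 89.0% identity with Tex19.1 over 418 aligned bases, was at 10.4 TPM in the T29I library and 2.07 TPM in the WT library. Reads of the pair may be split between them, and both were higher in the T29I library. Ubr2 was at 4.08 TPM in the T29I library and 27.3 TPM in the WT library, so its log2 ratio was -2.48, and -0.47 after adjustment.

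Mael, needed for piRNA-based silencing of transposons in spermatocytes, was at nearly the same level in both. It stood at 8.56 TPM in the T29I library (6.96 to 10.4) and 10.9 TPM in the WT library (8.85 to 13.3). The estimated reads were 98 in each library, and the TPM differ because 1 read was worth 1.27 times as much TPM in the WT library. The level was 1.27-fold lower in the T29I library (0.951 to 1.70), and the log2 ratio of -0.32 became 0.58 both relative to the shift and with adjustment.

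The RNA-binding proteins went opposite ways. Dazl, on chromosome 17 from 50279395 to 50293636, binds the ends of germ cell mRNAs and promotes their translation. It stood at 12.5 TPM in the T29I library (11.2 to 14.0) and 6.55 TPM in the WT library (5.48 to 7.79). Dazl was thus 1.91-fold higher in the T29I library (1.55 to 2.36), just short of the 2-fold rule with a log2 ratio of 0.84. The ratio was 1.73 once the shift was taken off and 2.53 after adjustment, above 98.1% of genes. Expressed genes were also split into 5 equal classes by length and 5 by GC content. Among the 529 genes that share both classes with Dazl, whose median was -1.45, Dazl lay above 98.7%. Ddx4, the mouse Vasa, is an RNA helicase of the germ granules and lies on chromosome 13 from 112598333 to 112652475. It stood at 3.67 TPM in the T29I library (2.88 to 4.62) and 23.2 TPM in the WT library (20.9 to 25.7). The level was 6.33-fold lower in the T29I library (4.90 to 8.24), with log2 ratios of -2.37 as deposited, -1.48 relative to the shift and -0.99 after adjustment. Ddx4 falls in the same length and GC classes as Dazl, where 18.5% of genes had a lower ratio than Ddx4.

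Stra8, which retinoic acid induces and which starts the meiotic programme, was lower in the T29I library. It lies on chromosome 6 from 34920163 to 34939344. Its level was 2.69 TPM in the T29I library (1.84 to 3.80) and 11.4 TPM in the WT library (9.37 to 13.8), from an estimated 32 reads in T29I and 107 in WT. That is 4.26-fold lower in the T29I library (2.84 to 6.52). Its log2 ratio was -1.75 as deposited, -0.86 relative to the shift and -1.43 after adjustment. Meiosin, the partner of Stra8, is listed as Gm4969 and was at 0.193 TPM in the T29I library and 1.03 TPM in the WT library, from about 6 reads in T29I and 25 in WT.

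**Figure D2:**
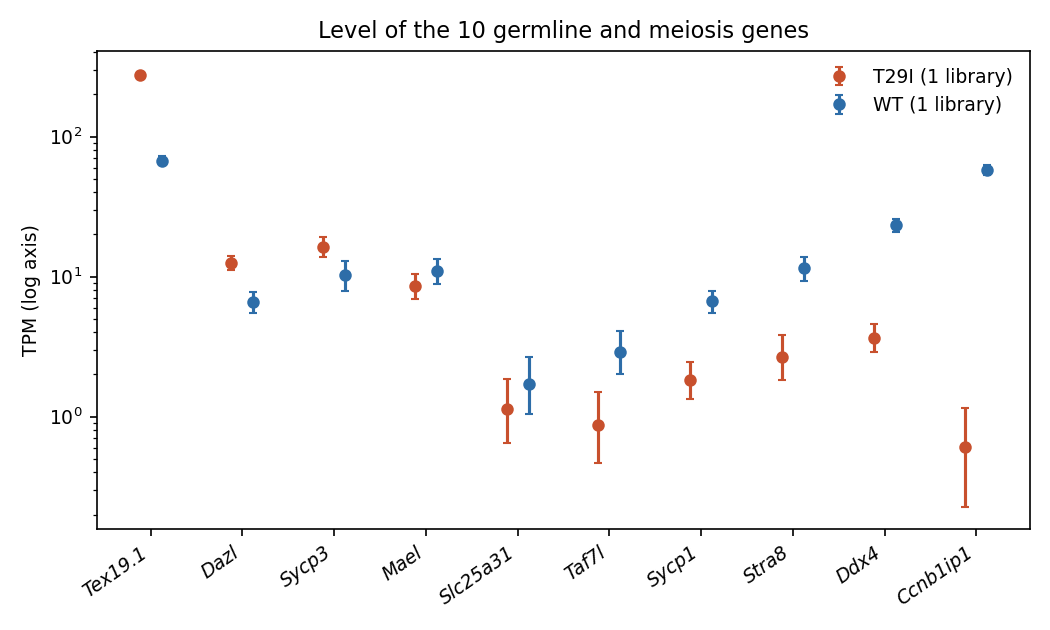
TPM of the 10 genes (log axis) in the T29I library (left point of each pair) and the WT library (right point), with bars for 95% counting intervals, ordered by the T29I over WT ratio. Tex19.1, Dazl and Sycp3 are higher in the T29I library, and the intervals overlap between libraries for Mael and Slc25a31 only.

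The core proteins of the synaptonemal complex also differed in direction. Sycp3 forms the lateral elements along each chromosome axis, and Sycp1 forms the transverse filaments that bridge them. Sycp3, on chromosome 10 from 88459569 to 88473236, stood at 16.3 TPM in the T29I library (13.7 to 19.3) and 10.2 TPM in the WT library (7.92 to 12.97). It was 1.60-fold higher in the T29I library (1.18 to 2.17), with log2 ratios of 0.62 as deposited, 1.52 relative to the shift and 2.21 after adjustment. All of Sycp3 lies inside Chpt1 on the opposite strand, and transcripts of the pair share 420 bases. Chpt1, a phospholipid enzyme gene, was at 4.16 TPM in the T29I library and 4.999 TPM in the WT library. The kit keeps strand, but the sources used here do not say whether counting used it, so reads of Sycp3 and Chpt1 cannot be told apart there. Sycp1, on chromosome 3 from 102818499 to 102936100, stood at 1.83 TPM in the T29I library (1.33 to 2.47) and 6.66 TPM in the WT library (5.54 to 7.95). This is 3.64-fold lower in the T29I library (2.55 to 5.27). Its log2 ratio of -1.44 was -0.54 relative to the shift and turned to 0.42 after adjustment, so the direction for Sycp1 holds only before length and GC content are taken into account. A pseudogene, Sycp1-ps1, matches Sycp1 at 92.4% identity over 2560 bases and was listed at 0 in both libraries.

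Ccnb1ip1 showed the widest gap of the 10 genes. It encodes Hei10, a ubiquitin ligase that marks crossover sites in meiosis, and lies on chromosome 14 from 50789248 to 50807732. Ccnb1ip1 was at 0.602 TPM in the T29I library (0.227 to 1.16) and 57.7 TPM in the WT library (53.1 to 62.7). In the WT library it ranked above 85.4% of the genes listed above 0, and in the T29I library above 28.5%. The level was 95.9-fold lower in the T29I library (49.4 to 256), from an estimated 7 reads in T29I against 564 in WT. The T29I value came to 7.48 reads before rounding, so the gene length used by the authors may differ and the interval is approximate. The log2 ratio was -5.20 as deposited, -4.30 relative to the shift and -4.12 after adjustment, below all but 0.185% of genes as deposited. Rpph1, a short RNA gene that overlaps Ccnb1ip1 on the same strand, was listed at 0 in both libraries, as was Gm18547, whose sequence is 89.96% identical over 667 bases. A Ccnb1ip1 transcript shares 233 identical bases with Rpph1, and strand cannot separate reads there. Whether reads of Rpph1 were counted to Ccnb1ip1 was not tested. Rnf212, another regulator of crossovers, came to about 2 reads in the T29I library and 0 in the WT library, too few for a comparison.

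The remaining pair are testis forms of widely expressed genes. Taf7l, on the X chromosome, encodes a germ cell relative of the TFIID subunit Taf7. It was at 0.877 TPM in the T29I library (0.467 to 1.501) and 2.92 TPM in the WT library (2.02 to 4.08), which is 3.33-fold lower in the T29I library (1.71 to 6.86). Its log2 ratio was -1.06, but -0.02 after adjustment and -0.17 with the shift taken off. Taf7 itself was at 49.8 TPM in the T29I library and 122 TPM in the WT library. Slc25a31, the ADP/ATP carrier of sperm mitochondria, was the lowest of the 10 in the WT library. It stood at 1.14 TPM in the T29I library (0.652 to 1.85) and 1.72 TPM in the WT library (1.04 to 2.69), from an estimated 16 reads in T29I and 19 in WT, and the fold of 1.51 lower had an interval of 0.735 to 3.14. The somatic carriers were far more abundant: Slc25a4 was at 114 TPM in the T29I library and 297 TPM in the WT library, and Slc25a5 at 877 TPM in T29I and 1310 TPM in WT.

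Counted together, 5 of the 10 genes were lower in T29I cells by 2-fold or more and 1 was higher as deposited. Of all 12943 expressed genes, 45.7% were lower and 9.97% higher by the same rule, so the share of lower genes was close to the background. Relative to the shift, 2 were lower and 3 higher, against 22.2% and 26.0% of all genes. After adjustment for length and GC content, 2 were lower and 3 higher, against 15.5% and 17.6%. The lower genes were Ccnb1ip1 and Ddx4 relative to the shift and Ccnb1ip1 and Stra8 after adjustment, and the higher genes were Tex19.1, Dazl and Sycp3 on both scales. The median log2 ratio of the 10 was -0.70, beside -0.84 for all genes. Relative to the shift it was 0.19 beside 0.06, and after adjustment 0.50 beside 0.04.

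**Figure D3:**
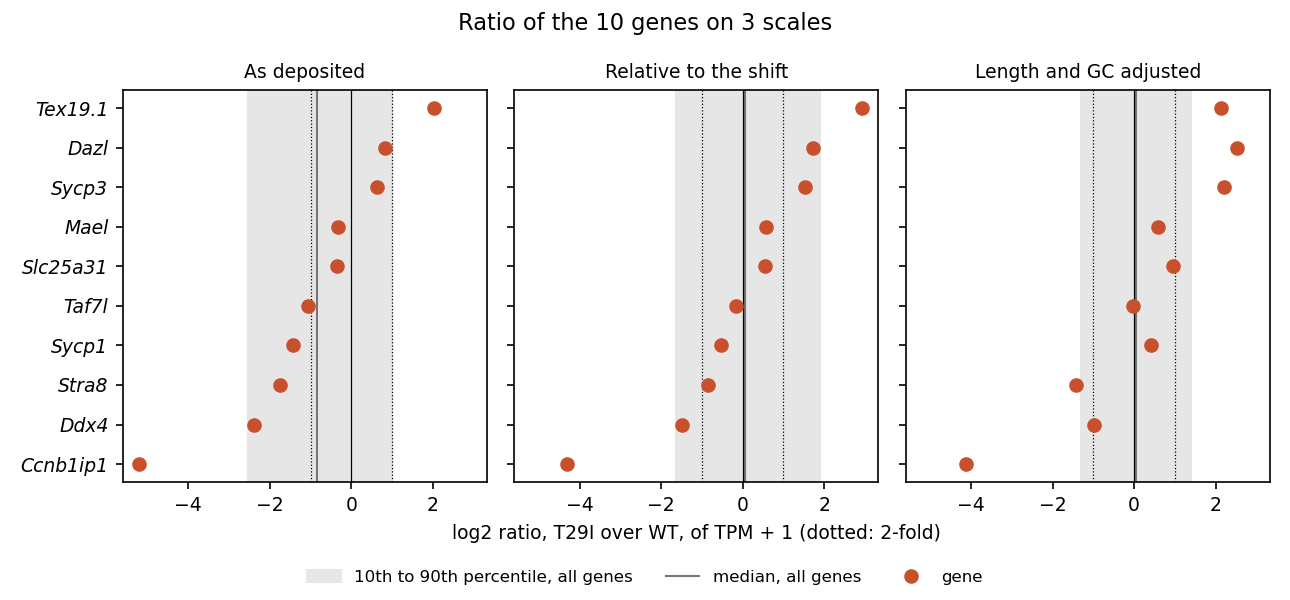
Log2 ratio of T29I over WT (TPM + 1) for each gene as deposited, relative to the shift, and adjusted for length and GC content, with the grey band from the 10th to the 90th percentile of all expressed genes, and dotted lines at 2-fold. Ccnb1ip1 lies far left on each scale, at -5.20, -4.30 and -4.12, while Tex19.1 lies to the right of the band in each.

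The order of the levels differed between the libraries. In the T29I library Tex19.1 led, followed by Sycp3 and Dazl, whose intervals overlapped, then Mael at 8.56 TPM. From Ddx4 downward, each gene of the T29I order overlapped its neighbour: Ddx4, Stra8, Sycp1, Slc25a31, Taf7l and Ccnb1ip1. The WT order began with Tex19.1 and Ccnb1ip1, whose intervals overlapped at 67.3 and 57.7 TPM, and went on with Ddx4. Stra8, Mael, Sycp3, Sycp1 and Dazl followed between 11.4 and 6.55 TPM, each overlapping the next, and Taf7l and Slc25a31 came last. Ccnb1ip1 was thus in the second place in the WT library and in the last in the T29I library. The median level of the 10 was 3.18 TPM in the T29I library and 10.6 TPM in the WT library, and 4 genes reached 5 TPM in T29I against 8 in WT.

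**Figure D4:**
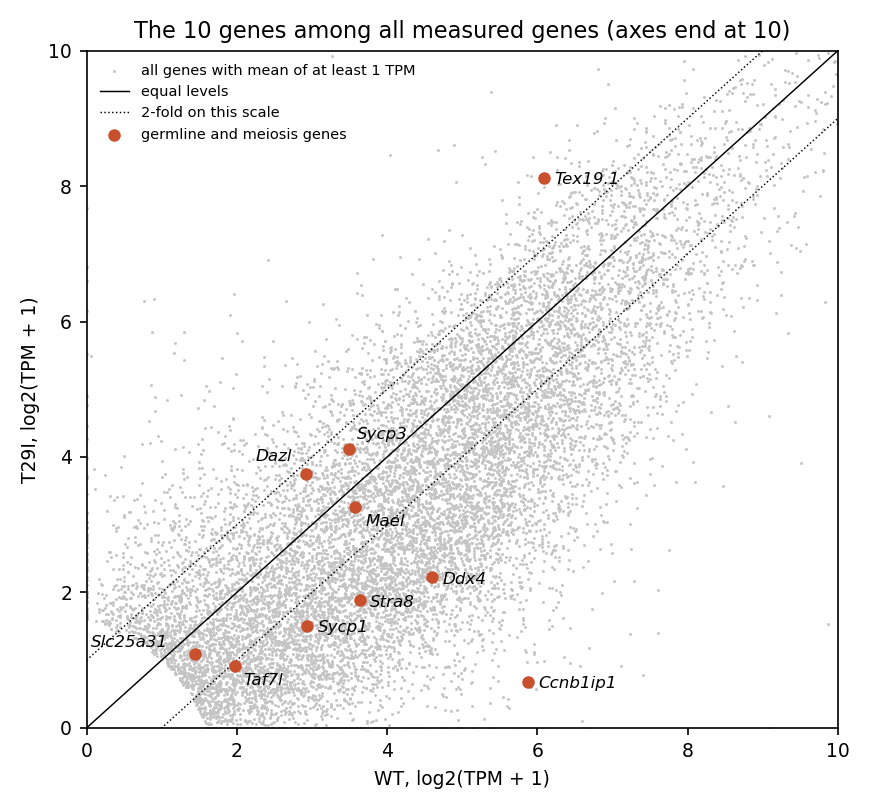
Log2(TPM + 1) of all expressed genes, T29I on the vertical and WT on the horizontal axis, with the 10 genes named, a solid line for equal levels and dotted lines at 2-fold, and axes that end at 10. Most genes lie below the solid line, and Ccnb1ip1 lies at the edge of the cloud.

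The other meiosis and piRNA genes also went both ways. In 4 lists without the 10 genes, 68 genes were found and 37 were expressed. Some of the 37 passed that filter only through 1 library, as given by list below, so the filter itself fixed their direction. Of the 37, 17 were lower in T29I cells by 2-fold or more and 5 higher, with a median of -0.82 beside -0.84 for all genes. Relative to the shift 7 were lower and 11 higher, and after adjustment 4 were lower and 10 higher, with a median of 0.36. Of all expressed genes, 45.7% were lower and 9.97% higher as deposited. The shares were 22.2% and 26.0% relative to the shift, and 15.5% and 17.6% after adjustment. They are the background for each list below as well.

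Among 10 other genes of the synaptonemal complex and meiotic cohesin, 6 were expressed. Syce1, a central element protein, was at 1.45 TPM in the T29I library and 14.9 TPM in the WT library. Stag3, a meiotic cohesin subunit, was at 1.61 TPM in T29I and 15.7 TPM in WT. In the other direction lay Syce3, another central element protein, at 4.11 TPM in the T29I library and 1.05 TPM in the WT library, where the estimate was 3 reads. Rec8, the meiotic kleisin, was at 17.3 TPM in the T29I library and 11.1 TPM in the WT library. Syce2 was the most abundant, at 51.1 TPM in T29I and 89.9 TPM in WT. As deposited 2 of the 6 were lower and 1 higher.

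Of 26 listed genes for meiotic recombination and the chromosome axis, 15 were expressed, 4 of them only through the WT library and 1 only through the T29I library. For those genes the filter itself fixed the direction. As deposited 8 were lower and 3 higher, and relative to the shift 2 were lower and 5 higher. Rec114, a partner of the break-forming machinery, was at 53.8 TPM in the T29I library and 11.9 TPM in the WT library. Meiob, which binds single-stranded DNA in meiosis, was at 2.04 TPM in the T29I library and listed at 0 in the WT library. Mlh3, a crossover endonuclease subunit, was at 1.16 TPM in the T29I library and 16.9 TPM in the WT library. Tex15 was at 0.252 TPM in T29I and 4.87 TPM in WT, but its adjusted ratio was 0.49. The most abundant were Mnd1, at 53.1 TPM in the T29I library and 98.4 TPM in the WT library, and Trip13, at 20.4 TPM in T29I and 68.2 TPM in WT.

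Regulators of meiotic entry held 7 expressed genes, of which 3 were lower and 0 higher as deposited, against 2 lower and 2 higher relative to the shift. Ythdc2, an RNA helicase needed for the switch to meiosis, was at 1.30 TPM in the T29I library and 14.0 TPM in the WT library, with an adjusted ratio of -0.31. Taf4b was at 2.82 TPM in T29I and 22.4 TPM in WT. Sohlh2 was at 12.999 TPM in the T29I library and 10.6 TPM in the WT library, and Tcfl5 at 47.5 TPM in T29I and 37.1 TPM in WT.

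In the piRNA pathway 9 of 17 genes were expressed, with 4 lower and 1 higher as deposited and 1 lower and 2 higher relative to the shift. Of the 4 lower, Tdrd1 passed the filter only through the WT library, so the filter itself fixed its direction. Pnldc1, which trims piRNA ends, was at 8.16 TPM in the T29I library and 42.8 TPM in the WT library, with an adjusted ratio of -1.94. Mov10l1, a piRNA helicase, was at 1.05 TPM in T29I and 4.97 TPM in WT. Fkbp6 was at 16.6 TPM in the T29I library and 5.38 TPM in the WT library, and Gtsf1 at 2.72 TPM in T29I and 1.39 TPM in WT. Tdrd12 was at 20.6 TPM in the T29I library and 27.0 TPM in the WT library. The piRNA-binding protein Piwil2, named after its values were seen, was at 4.16 TPM in T29I and 7.14 TPM in WT.

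Germline genes listed as sensitive to DNA methylation, apart from the 10 described, went both ways as deposited, but 0 were lower relative to the shift. Not all were off in the WT library, where Dnmt3l stood at 206 TPM and Rpl10l at 53.5 TPM. The list held 20 genes, 6 of them also in another list, and 12 were expressed. Tex101 and Tuba3b passed that filter only through the T29I library and Tdrd1 only through the WT library, so the filter itself fixed their direction. As deposited 6 of the 12 were higher by 2-fold or more and 3 lower, and relative to the shift 8 were higher and 0 lower. After adjustment 8 were higher and 1 lower. Of all expressed genes 9.97% were higher as deposited, 26.0% relative to the shift and 17.6% after adjustment. Tuba3a, a testis alpha-tubulin, was at 83.1 TPM in the T29I library and 11.7 TPM in the WT library. Its near copy Tuba3b was at 2.22 TPM in T29I and 0.217 TPM in WT, and such copies can share reads. Dnmt3l, a cofactor of DNA methylation in germ cells, was at 568 TPM in the T29I library and 206 TPM in the WT library. Tex101, a germ cell surface protein, was at 4.02 TPM in T29I and 0.814 TPM in WT, the WT value from an estimated 7 reads. Against these, Rhox13 was at 1.73 TPM in the T29I library and 5.50 TPM in the WT library, Tdrd1 at 0.195 TPM in T29I and 1.84 TPM in WT, and Rpl10l was within 2-fold as deposited at 57.7 TPM in T29I and 53.5 TPM in WT.

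**Figure D5:**
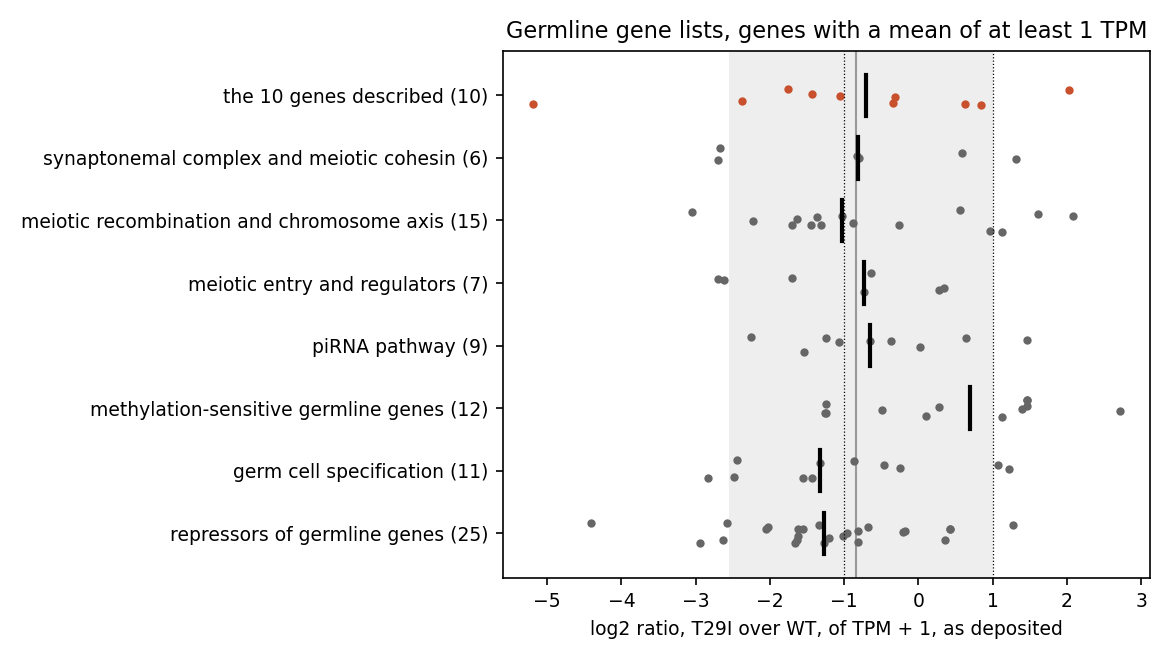
Log2 ratio of T29I over WT (TPM + 1, as deposited) for expressed genes in each list (number of genes in brackets), with a black bar for the list median, a grey band from the 10th to the 90th percentile and a grey line for the median of all genes, and dotted lines at 2-fold. The methylation-sensitive list has a median of 0.70 and the repressor list -1.27.

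The known repressors of these genes were measured in full, all 25 being expressed. As deposited 15 were lower and 1 higher, beside 45.7% and 9.97% of all expressed genes, with a median of -1.27 for the list. Relative to the shift 6 were lower and 4 higher, and after adjustment 2 were lower and 3 higher, with a median of -0.03. Mga, the E-box-binding scaffold of PRC1.6, was at 2.61 TPM in the T29I library and 76.2 TPM in the WT library. Its log2 ratio of -4.42 became -0.95 after adjustment. Smchd1 was at 4.21 TPM in the T29I library and 39.0 TPM in the WT library, with an adjusted ratio of -0.59. Yaf2 was at 10.7 TPM in T29I and 3.80 TPM in WT, and the de novo methyltransferase Dnmt3b at 209 TPM in T29I and 154 TPM in WT. The most abundant were Trim28, at 1542 TPM in the T29I library and 1781 TPM in the WT library, and Uhrf1, which recruits the maintenance methyltransferase, at 176 TPM in T29I and 357 TPM in WT. Named after their values were seen, E2f6 was at 4.41 TPM in the T29I library and 8.50 TPM in the WT library and Max at 24.8 TPM in T29I and 104 TPM in WT. The adjusted ratios of E2f6 and Max were 0.09 and -1.51.

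Genes of germ cell specification, which ES cells share in part, had 11 of 12 expressed, 6 lower and 2 higher as deposited and 3 lower and 2 higher relative to the shift. Prdm14, a regulator of primordial germ cells and naive pluripotency, was at 4.19 TPM in the T29I library and 36.0 TPM in the WT library. Kit, the receptor that guides germ cell survival, was at 4.07 TPM in T29I and 27.3 TPM in WT. Dnd1, an RNA-binding protein of primordial germ cells, was at 38.3 TPM in the T29I library and 15.8 TPM in the WT library. Dppa3 was at 153 TPM in T29I and 72.6 TPM in WT. The most abundant were Pou5f1, at 1454 TPM in the T29I library and 1722 TPM in the WT library, and Nanog, at 140 TPM in T29I and 765 TPM in WT.

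Other partners and relatives of the 10 genes had these values. Ddx3x, a somatic relative of Ddx4, was at 336 TPM in the T29I library and 645 TPM in the WT library. The Dazl relative Boll was at 0.215 TPM in T29I and 0.932 TPM in WT, and Dazap1, which binds Dazl, at 116 TPM in T29I and 153 TPM in WT. Tbp, the TFIID core subunit, was at 4.82 TPM in the T29I library and 11.3 TPM in the WT library, and Xlr, a Sycp3 relative, had about 7 reads in T29I and 0 in WT. Of the 8 expressed, 4 were lower and 1, Tex19.2, was higher as deposited, beside 45.7% and 9.97% of all expressed genes. Relative to the shift 1 was lower and 1 higher, and after adjustment 1 was lower and 2 higher.

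Genes beside the 10 in the genome were compared as well, taking the nearest expressed protein-coding gene on each side. Of these 20 neighbours, 11 were lower in T29I cells by 2-fold or more and 2 higher as deposited, beside 45.7% and 9.97% of all expressed genes, with a median of -1.08. With the shift taken off 4 were lower and 3 higher, and after adjustment 2 were lower and 3 higher. The neighbours of Tex19.1, Tex19.2 at 27.5 kb and Ogfod3 at 29.3 kb, were the higher ones as deposited, and relative to the shift Wdr91 beside Stra8 was higher as well, at 1.63. Ogfod3 was at 30.9 TPM in the T29I library and 10.8 TPM in the WT library, with an adjusted ratio of 0.98, within 2-fold. Parp2, only 0.109 kb from the outermost GENCODE start of Ccnb1ip1, was at 22.1 TPM in the T29I library and 100.4 TPM in the WT library. That start lies 12004 bases upstream of the RefSeq start whose promoter is printed. Ttc5, on the other side of Ccnb1ip1, was at 60.3 TPM in T29I and 108 TPM in WT. Gnptab, 12.2 kb from Sycp3, was at 3.89 TPM in T29I and 26.6 TPM in WT, so it went the other way from Sycp3. Slc38a9, 8.28 kb from Ddx4, was at 0.459 TPM in the T29I library and 2.10 TPM in the WT library. Its adjusted ratio was 1.52, so it was among the 3 neighbours counted as higher after adjustment. The lowest ratio among the neighbours as deposited was that of Il6st beside Ddx4, -2.69, which was -0.27 after adjustment. Wdr91 beside Stra8 had the highest as deposited apart from those of Tex19.1, 0.74.

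With a single value per library, the likeness of a gene to others is only a closeness in level over 2 libraries. The protein-coding gene closest to Ccnb1ip1 was Tet2, at 0.489 TPM in the T29I library and 62.1 TPM in the WT library, followed by Taf1 at 0.955 TPM in T29I and 57.4 TPM in WT. Only 8 genes lay within 0.5 log2 units of Ccnb1ip1, and 25 of Tex19.1, whose nearest were Ptov1 and Apoa1bp. The other 8 each had, among named expressed protein-coding genes, between 169 and 458 such genes. The nearest were Tmem150a and Slc16a13 for Dazl, Slc23a2 and Zfp422 for Ddx4, Mkrn3 and Nav1 for Stra8, and Camta1 and Aaed1 for Sycp1. They were Tm4sf5 and Cyb561d2 for Sycp3, Tesk2 and Card10 for Mael, Pigc and Calml4 for Taf7l, and Nat8f4 and Zfp800 for Slc25a31.

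Markers of cell types that could carry these RNAs were checked against the ES cell label. All 10 ES cell markers were above 20 TPM in both libraries, summing to 7657 TPM in the T29I library and 11254 TPM in the WT library. As deposited 6 of the 10 were lower and 1 higher, beside 45.7% and 9.97% of all expressed genes. The lowest ratio was that of Zfp42, at 23.3 TPM in the T29I library and 544 TPM in the WT library. The higher one was Utf1, at 2459 TPM in T29I and 972 TPM in WT. Utf1 had a log2 ratio of 1.34 as deposited and -0.40 after adjustment, so its direction turned. Of the 10, 3 were lower and 1 higher relative to the shift, and after adjustment 3 were lower and 0 higher. Dppa5a was the most abundant, at 2632 TPM in T29I and 5089 TPM in WT. The 14 late spermatogenesis markers summed to 5.43 TPM in the T29I library and 8.57 TPM in the WT library. Prm1, Tnp1, Akap4 and Pgk2 were listed at 0 in both. Of the other markers not expressed, Prm2 and Tnp2 came to about 1 read each in the WT library, and Acrv1 and Gapdhs to 3 each. Acr, Odf1 and Spata18 came to about 1 read each in the T29I library. All of these were at 0 in the other library. The 3 expressed ones were Ldhc, at 1.82 TPM in the T29I library and 0.366 TPM in the WT library, Crem at 1.82 TPM in T29I and 2.65 TPM in WT, and Tssk6 at 1.47 TPM in T29I and 4.47 TPM in WT. Ldhc passed the filter only through the T29I library, so the filter itself fixed its direction. Of 12 somatic gonad markers, Star alone passed, at 0.736 TPM in the T29I library and 8.15 TPM in the WT library, and the list summed to 3.31 TPM in T29I and 12.5 TPM in WT. Star passed only through the WT library, so its direction too was fixed by the filter. The 10 feeder fibroblast markers summed to 21.5 TPM in the T29I library and 9.55 TPM in the WT library. Most of that was Thy1, at 17.6 TPM in T29I and 4.57 TPM in WT, while Lum was listed at 0 in both, Col1a1 was at 1.38 TPM in T29I and 0.939 TPM in WT, and S100a4 was at 1.81 TPM in T29I and 2.31 TPM in WT. Col1a1 passed the filter only through the T29I library. The part of other cells in the values of the 10 genes was not tested.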

How the data were processed

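Per the labels' protocols, Isogen was used for extraction, and a TruSeq Stranded kit with Ribo-Zero depletion of ribosomal RNA for the libraries, so strand was kept. The authors deposited TPM values per gene, and each library sums to 1000000. The sources used here do not name the aligner, the counting tool, the build or the treatment of multiply mapping reads. TPM keeps differences in RNA integrity, fragment size and amplification between libraries, and abundant RNAs lower the TPM of all others.

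Identifiers were matched to GENCODE M21 (51633 of 51826). TPM times merged exon length was a whole multiple of 1 read's worth, within 0.05, for 87.0% of low values in the T29I library and 88.4% in the WT library, against 10% by chance. The resulting estimated reads served only for counting intervals (exact Poisson for levels, exact binomial for folds, 95%), which cover counting error only. The recovery and the adjustment were tested on simulated data. Ratios used a pseudocount of 1 TPM, and genes averaging 1 TPM or more entered. For the adjustment, a second-degree surface in log2 length and GC content of the longest transcript, with their product, was fitted over protein-coding genes averaging 5 TPM or more and subtracted. Promoters came from RefSeq (GRCm38.p6, all 10 matched), and near copies from BLAST+ 2.17.0 (at least 85% identity over 200 bases). SciPy 1.17.1 and pandas 2.3.3 were used.

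The genes, lists and tests were chosen with earlier results of these data known. In each list the text names the 2 highest and 2 lowest ratios and the 2 most abundant genes, all listed relatives, and the 2 genes closest in level. Meiosin, Rnf212, Piwil2, Tuba3b, E2f6, Max and the neighbours with values were singled out after their values were seen. Lum, Zp1, Zp2 and the late spermatogenesis markers that were not expressed were also named outside this rule. A gene that this rule selects is not reported here. Alternatives were another pseudocount, filter or scale.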

Additional observations from a re-analysis of the deposited data

How the results depend on the processing

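No paired analysis was possible because each group has 1 library. The count of genes lower in T29I cells by 2-fold or more, 5 as deposited, became 3 with a pseudocount of 5 TPM, 3 among the 7 genes averaging 5 TPM or more, 2 relative to the shift and 2 after length and GC adjustment. The count of higher genes, 1 as deposited, became 2 when both libraries were rescaled without their 20 most abundant genes, 3 relative to the shift and 3 after adjustment. Relative to the shift, the count of lower genes, 2, became 1 with a pseudocount of 5 TPM and 3 with one of 0.1 TPM. The log2 ratio of Sycp1, -1.44, reversed to 0.42 after adjustment. By construction, a larger pseudocount shrinks ratios of low genes, and the shift adds the same amount to every gene. For the other moves the cause was not tested. Tex19.1, Dazl and Sycp3 were higher, and Ccnb1ip1, Ddx4, Stra8 and Taf7l lower, in all 7 settings run for single genes. Most of these settings could not have turned a sign. A pseudocount or the filter leaves the sign of a gene as it is, and the shift only raises its ratio. For the higher genes, only the rescaling and the adjustment could have turned it. Sycp1, Mael and Slc25a31 took both signs. The log2 ratio of Ccnb1ip1 ranged from -6.36 to -3.49, that of Tex19.1 from 1.97 to 2.92 and that of Taf7l from -1.63 to -0.02. Depth limits Slc25a31, Taf7l and Ccnb1ip1 most, with an estimated 16, 13 and 7 reads in the T29I library.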

Other observations

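Genes known from oocytes were mostly near 0, but some that ES cells also express were higher in the T29I library. Of 12 oocyte markers 3 were expressed, 2 of them higher by 2-fold or more and 0 lower as deposited, beside 9.97% and 45.7% of all expressed genes. Khdc3, of the maternal complex under the egg membrane, was at 125 TPM in the T29I library and 35.1 TPM in the WT library. Zp3, a protein of the egg coat, was at 60.6 TPM in the T29I library and 17.0 TPM in the WT library. Ooep was at 60.7 TPM in T29I and 87.0 TPM in WT. The remaining egg coat genes were low: Zp1 and Zp2 came to about 7 and 2 reads in the T29I library and 1 each in the WT library.

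The retinoic acid response, the pathway that induces Stra8 in the gonad, had 8 of 12 genes expressed, 2 of them higher and 0 lower as deposited, and 4 higher and 0 lower relative to the shift. After adjustment 1 was higher and 1 lower. Of all expressed genes, 9.97% were higher and 45.7% lower as deposited. The shares were 26.0% and 22.2% relative to the shift, and 17.6% and 15.5% after adjustment. Crabp2, a retinoic acid carrier, was at 20.4 TPM in the T29I library and 5.10 TPM in the WT library, and Crabp1 at 82.9 TPM in T29I and 32.4 TPM in WT. Rarg, the most abundant receptor, was at 76.5 TPM in the T29I library and 147 TPM in the WT library. Stra8 was lower in the T29I library, as given above, so it went the other way from Crabp1 and Crabp2 in these libraries.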
